A study of Homo sapiens with 12 samples.

Results

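Cyclin-dependent kinase (CDK) inhibitors were followed at the RNA level in a pair of non-small-cell lung cancer lines treated with siRNA against NGFR, the nerve growth factor receptor. The members were the 8 genes named CDKN1A, CDKN1B, CDKN1C, CDKN2A, CDKN2B, CDKN2C, CDKN2D and CDKN3 among the 64253 genes of the deposited table. They were chosen by name as a family, with earlier results of these data known. H460 cells carry wild-type p53 and H1299 cells are described as lacking it. Each line received a control siRNA (siCont) or the NGFR siRNA (siNGFR), with 3 libraries in each of the 4 groups and 12 in all. The study asked what loss of NGFR does to p53-dependent genes, with H1299 as the line without p53. All cells grew in DMEM with 10% fetal bovine serum, and total RNA was depleted of ribosomal RNA before sequencing. The H1299 siNGFR titles carry a 3 after the word knockdown that is not explained, and each line is a single established culture, so differences between the lines have no replicate beyond the libraries.

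CDK inhibitors stop the cell cycle by blocking the kinases that drive it. The CIP/KIP proteins, p21 (CDKN1A), p27 (CDKN1B) and p57 (CDKN1C), bind complexes of cyclin with CDK, above all those of CDK2. The INK4 proteins, p16 (CDKN2A), p15 (CDKN2B), p18 (CDKN2C) and p19 (CDKN2D), bind CDK4 and CDK6 and keep D-type cyclins away from them, which leaves the retinoblastoma protein active. CDKN2A also encodes ARF, which restrains MDM2, the ubiquitin ligase of p53, from a second start site. CDKN3 differs in kind, since it is a phosphatase that removes an activating phosphate from CDKs and its RNA is high in dividing cells. CDKN1A is the classic transcriptional target of p53, and CDKN2A and CDKN2B lie side by side and are often lost in cancer.

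Total counts ran from 16672164 to 36116823 per library. Values below are CPM, counts per 1000000 counts, scaled by TMM over the 12 libraries, and levels of different genes are compared only as CPM per kb of exon. NGFR itself had between 0 and 6 counts in a library, with 6 counts in all in H460 siCont and 4 in H460 siNGFR, and 8 and 2 in H1299, so the knockdown was not measurable at this depth. Of the 5 epithelial markers, KRT8 and KRT18 stood between 226 and 665 CPM in every group, KRT19 was high in H460 alone among these lines (161 against 0.0385 CPM with siCont), and EPCAM and CDH1 were close to 0 in both. Leukocyte markers were near 0 apart from CD14 in H460, at 12.3 CPM with siCont and 8.97 with siNGFR. Short RNAs, whose exons sum to less than 400 bases, made up 43.1% to 48.2% of a library in H460 siCont and 50.5% to 55.6% in H460 siNGFR, against 48.7% to 53.7% and 41.7% to 50.6% in H1299, and the part of this shift in the results was not tested beyond the fits without those RNAs. One library, H1299 siNGFR replicate 3, lay on the siCont side of the first principal component of its line (-19.4, with 57.9 and 68.9 for the other siNGFR libraries and -50.3 to -22.7 for siCont). The changes of the inhibitors and of their partners in H1299 are therefore given with and without it. It was singled out for its likeness to siCont, and leaving such a library out widens the gap between the groups by construction.

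The promoter windows of the inhibitors that changed in H460, and those of CDKN2A, whose starts serve different proteins, are shown here because the results below turn on these genes. RefSeq start sites gave 10 windows for 7 members, each 300 bases long, from 250 bases before to 50 after the start (GRCh38.p14). Capitals mark matches to the GC box (GGGCGG on either strand), the element bound by SP1-family factors. Matches may overlap each other. CDKN1A, chr6:36678464-36678763, plus strand, 74.3% G and C:
CDKN1A: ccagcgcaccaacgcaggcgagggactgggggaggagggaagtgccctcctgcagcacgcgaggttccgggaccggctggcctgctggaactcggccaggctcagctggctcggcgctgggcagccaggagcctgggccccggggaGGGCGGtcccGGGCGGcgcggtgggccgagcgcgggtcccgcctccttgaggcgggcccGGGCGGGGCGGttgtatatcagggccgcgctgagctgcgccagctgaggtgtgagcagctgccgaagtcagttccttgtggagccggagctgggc
CDKN2C has 3 annotated starts, at chr1:50960495-50960794, chr1:50968456-50968755 and chr1:50969995-50970294, all on the plus strand, with 46.3%, 71.3% and 49.3% G and C:
CDKN2C start 1: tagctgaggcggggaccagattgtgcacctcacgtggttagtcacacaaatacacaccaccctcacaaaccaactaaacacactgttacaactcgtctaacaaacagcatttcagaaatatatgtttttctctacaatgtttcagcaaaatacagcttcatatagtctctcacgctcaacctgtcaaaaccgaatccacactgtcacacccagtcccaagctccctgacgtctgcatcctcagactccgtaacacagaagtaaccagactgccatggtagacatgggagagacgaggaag
CDKN2C start 2: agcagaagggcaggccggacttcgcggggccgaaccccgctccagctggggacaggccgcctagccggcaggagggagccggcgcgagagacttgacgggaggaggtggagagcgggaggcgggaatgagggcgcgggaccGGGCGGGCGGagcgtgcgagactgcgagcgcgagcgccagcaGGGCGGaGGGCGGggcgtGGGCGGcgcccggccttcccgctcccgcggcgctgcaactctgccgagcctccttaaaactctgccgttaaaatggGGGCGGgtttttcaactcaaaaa
CDKN2C start 3: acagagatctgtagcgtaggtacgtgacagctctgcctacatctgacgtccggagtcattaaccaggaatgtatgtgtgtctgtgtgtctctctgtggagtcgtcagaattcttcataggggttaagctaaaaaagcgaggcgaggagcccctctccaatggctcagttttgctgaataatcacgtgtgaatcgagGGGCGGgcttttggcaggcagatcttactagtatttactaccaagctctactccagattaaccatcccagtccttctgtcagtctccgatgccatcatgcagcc
CDKN2A has a pair of starts on the minus strand, at chr9:21995275-21995574 and chr9:21974808-21975107, with 63.3% and 69.0% G and C:
CDKN2A start 1: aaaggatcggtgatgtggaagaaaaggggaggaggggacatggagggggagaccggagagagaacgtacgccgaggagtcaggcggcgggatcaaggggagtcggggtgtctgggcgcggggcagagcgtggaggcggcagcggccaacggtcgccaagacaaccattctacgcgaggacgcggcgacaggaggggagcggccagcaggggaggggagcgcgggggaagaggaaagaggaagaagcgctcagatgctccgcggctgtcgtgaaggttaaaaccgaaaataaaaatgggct
CDKN2A start 2: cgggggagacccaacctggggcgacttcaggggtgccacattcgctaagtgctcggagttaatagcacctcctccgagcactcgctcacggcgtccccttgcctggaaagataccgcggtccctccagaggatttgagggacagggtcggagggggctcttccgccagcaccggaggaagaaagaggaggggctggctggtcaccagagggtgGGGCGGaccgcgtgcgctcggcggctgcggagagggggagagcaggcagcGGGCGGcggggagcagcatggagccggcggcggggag
The CDKN1A window held 4 GC boxes, the second CDKN2C window 6 and the third 1, while the first held 0. The CDKN2A windows held 0 and 2. Over all 35116 windows of the RefSeq table, 45.0% held at least 1 GC box. No window of a member held the TATA box word TATAAA (11.5% of all windows) or a p53 half-site (6.63% of all windows), and the known p53 elements of CDKN1A lie further upstream than this window reaches. Only the CDKN3 window among the 10 held TTTGAA on either strand, the core of the cell cycle homology region (15.2% of all windows). These are matches of letters, not measured sites.

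CDKN1A, whose product p21 arrests cells in G1 and G2, was the inhibitor with the most RNA in H460 and the only one of those tested whose response was called different between the lines. It lies on chromosome 6 (36676460 to 36687339, plus strand, GRCh38). In H460 siCont libraries 4, 5 and 6 it stood at 41.3, 36.8 and 36.1 CPM, and in H460 siNGFR libraries 4, 5 and 6 at 88.1, 90.6 and 110.4 CPM. The lowest siNGFR library was above every siCont library. The difference was 1.36 ± 0.12 on the log2 scale (SE, 2.57-fold, edgeR quasi-likelihood test, adjusted p = 0.000205, higher in 3 of 3 libraries). In RNA from a whole culture, more RNA per cell and more cells with the RNA cannot be told apart. In H1299 siCont libraries 1, 2 and 3 CDKN1A stood at 20.9, 20.6 and 19.4 CPM, and in H1299 siNGFR libraries 1, 2 and 3 at 6.77, 7.82 and 14.5 CPM. Here all 3 siNGFR libraries were below all siCont libraries, with replicate 3 between the rest. The fitted difference in H1299 was -1.06 ± 0.26 (SE), with an unadjusted p of 0.00295 and an adjusted p of 0.261 by edgeR's quasi-likelihood test, so it was not called. Without H1299 siNGFR replicate 3 it was -1.49 ± 0.13 with an adjusted p of 1.1e-05 in edgeR's test. Without H1299 siNGFR replicate 1 or 2 it was -0.85 (adjusted p = 0.684) and -0.94 (adjusted p = 0.617), so that among these fits the call rests on which library is left out. DESeq2 called it with all libraries (-1.07 ± 0.28, adjusted p = 0.0205). So did edgeR when genes were not filtered, and in 1 fit of the 12 libraries of both lines. The difference between the responses, H460 minus H1299, was 2.40 ± 0.30 (edgeR, adjusted p = 0.00468), and leaving out 1 of the 12 libraries gave 2.18 to 2.75, with adjusted p no higher than 0.0277.

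**Figure D1:**
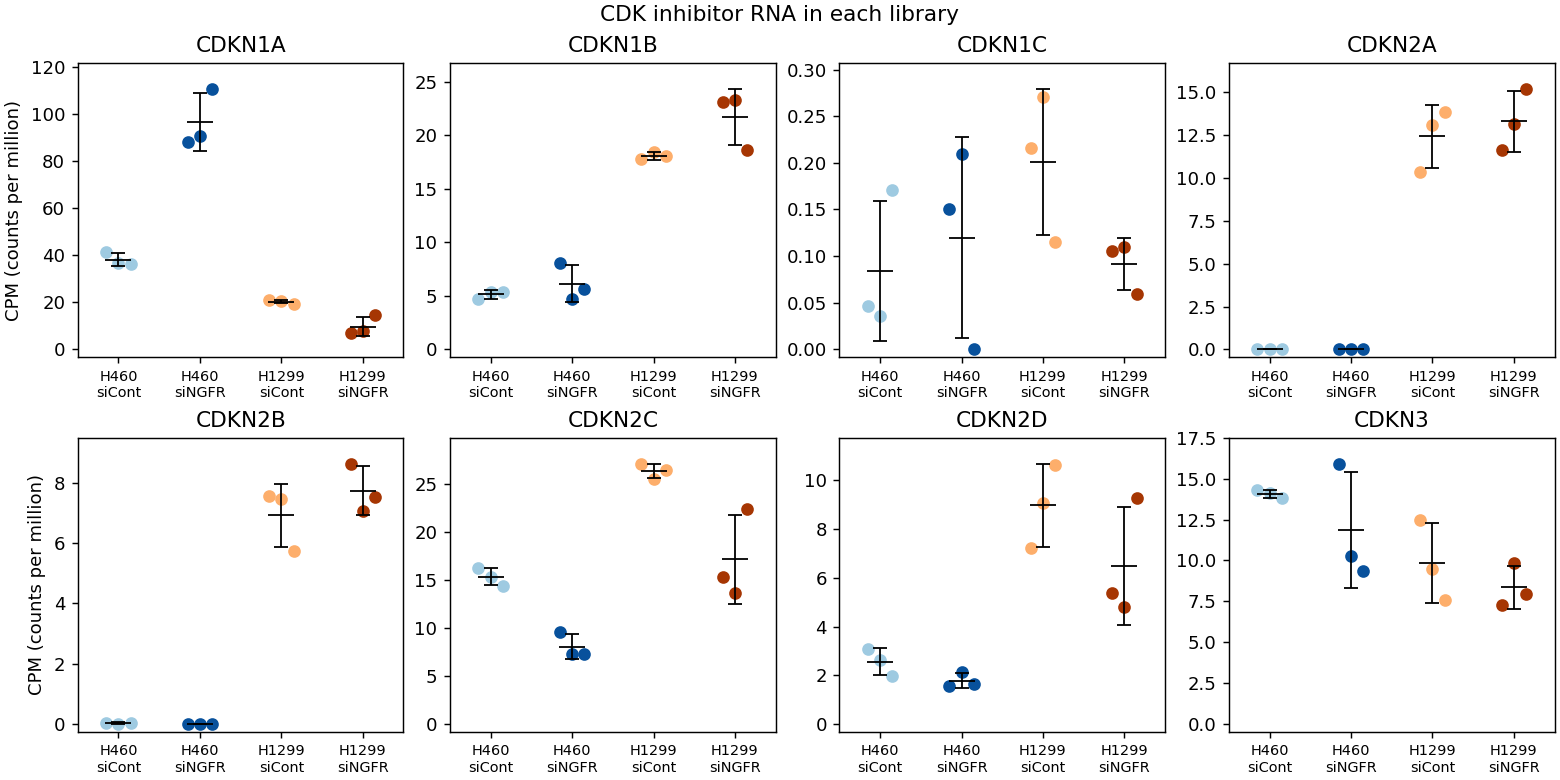
RNA of each CDK inhibitor in CPM (vertical axes, 1 scale per gene) in the 4 groups, with 1 point per library and the mean ± SD in black (n = 3). CDKN1A rose in H460 from 36.1 to 41.3 CPM up to 88.1 to 110.4 CPM, CDKN2C fell in H460, CDKN2A and CDKN2B were at or next to 0 in H460, and CDKN1C was close to 0 everywhere.

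CDKN1B, the gene of p27, had no called change in either line with all libraries and a wide gap between the lines. The gene lies on chromosome 12 (12715058 to 12722371, plus strand). H460 siCont libraries 4, 5 and 6 held 4.67, 5.39 and 5.40 CPM, and H460 siNGFR libraries 4, 5 and 6 held 8.11, 4.69 and 5.66 CPM. These groups overlapped, since library 4 of siNGFR was high and library 5 low, and the difference of 0.26 ± 0.19 (SE) had an adjusted p of 0.52 in edgeR's test. H1299 siCont libraries 1, 2 and 3 held 17.8, 18.5 and 18.0 CPM, and H1299 siNGFR libraries 1, 2 and 3 held 23.1, 23.3 and 18.7 CPM. The H1299 groups did not overlap, but replicate 3 of siNGFR lay just above the highest siCont library. The difference there was 0.25 ± 0.13 (SE, edgeR adjusted p = 0.313), and 0.35 ± 0.11 (adjusted p = 0.0336) without replicate 3. Between the lines CDKN1B was lower in H460, with a log2 difference of -1.81 ± 0.13 with siCont (edgeR, adjusted p = 1.21e-08) and -1.88 ± 0.21 with siNGFR (adjusted p = 3.59e-05).

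CDKN1C, the gene of the imprinted inhibitor p57, was next to silent in both lines. It lies on chromosome 11 (2883213 to 2885773, minus strand) and had between 0 and 5 counts in a library, 7 in all in H460 siCont, 8 in H460 siNGFR, 12 in H1299 siCont and 8 in H1299 siNGFR. It passed the filter on low counts in no comparison, and no difference was detectable at this depth. KCNQ1OT1, the noncoding RNA of the same imprinted cluster, was counted well, at 12.5 ± 2.66 CPM in H460 siCont and 2.10 ± 0.44 in H1299 siCont (SD, n = 3 each, higher in H460 by 2.58 ± 0.20, adjusted p = 4.97e-08 in edgeR's test). Of the 10 neighbours of CDKN1C with a row in the file, 7 could be tested in H460. CARS, the cysteinyl-tRNA synthetase, rose by 0.78 ± 0.12 (SE, adjusted p = 0.00303) and CD81, a tetraspanin, fell by 0.51 ± 0.12 (adjusted p = 0.0338), both by edgeR, and the other 5 were not called. Over all genes 1.81% were called higher in H460 and 2.50% lower. CARS stood at 25.5 ± 1.65 CPM in H1299 siCont and 41.1 ± 5.60 in H1299 siNGFR (SD, n = 3 each). With all libraries, 0 of the 7 neighbours tested in H1299 were called. CD81 also differed in its response between the lines (H460 minus H1299 -0.99 ± 0.19, edgeR adjusted p = 0.0401).

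Among the INK4 genes, CDKN2A and CDKN2B separated the lines most sharply. CDKN2A (chromosome 9, 21967753 to 21995301, minus strand) had 0 counts in each of the 6 H460 libraries. H1299 siCont libraries 1, 2 and 3 held 10.4, 13.1 and 13.9 CPM and H1299 siNGFR libraries 1, 2 and 3 held 11.6, 13.1 and 15.2 CPM. Over the 3 libraries of a group these were 722 and 1195 counts, so that CDKN2A was at least 324-fold higher in H1299 than in H460 with siCont and at least 296-fold higher with siNGFR, with the H460 group set to a floor of 3 counts in all. Counts per gene merge the transcripts of p16 and ARF, which begin at the starts printed above. CDKN2B (chromosome 9, 22002903 to 22009363, minus strand) had 1, 0 and 1 counts in H460 siCont and 0 in every H460 siNGFR library. H1299 siCont libraries 1, 2 and 3 held 7.56, 7.46 and 5.72 CPM, and H1299 siNGFR libraries 1, 2 and 3 held 8.63, 7.05 and 7.53 CPM. The ratio of H1299 to H460 was 277 with siCont (95% counting interval 76.2 to 2300) and at least 177-fold with siNGFR. Such intervals and floors cover counting error only. Both passed the filter on low counts through H1299 alone, so no test between the lines is given for them. Within H1299 neither was called after siNGFR, with differences of 0.09 ± 0.16 for CDKN2A (SE, edgeR adjusted p = 0.765) and 0.16 ± 0.16 for CDKN2B (adjusted p = 0.599). Without H1299 siNGFR replicate 3 these were -0.01 (adjusted p = 0.954) and 0.18 (adjusted p = 0.457). In H460 neither had the counts to be tested.

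The near absence of reads in H460 took in the next genes as well, but not those on the outer sides. CDKN2B-AS1, the long noncoding RNA also called ANRIL, runs antisense across CDKN2B and overlaps only the upstream end of CDKN2A (chromosome 9, 21994778 to 22121097, plus strand). It had 1 count in H460 siCont against 54 in H1299 siCont, a ratio of 72.6 (95% counting interval 12.5 to 2920), and 1 against 92 with siNGFR, a ratio of 68.4 (12 to 2730). The sources used here do not give the strand setting of the counting, so reads of the overlapping genes cannot be told apart. DMRTA1 (22446841 to 22455740), further along the same chromosome, had 2 counts in H460 with either siRNA against 134 and 188 in H1299, ratios of 90.1 (24.5 to 752) and 69.9 (19.1 to 581). On the near side MTAP (21802543 to 21937651), the methylthioadenosine phosphorylase, was well counted in H460 at 23.1 ± 0.85 CPM with siCont, above its 14.8 ± 1.56 CPM in H1299 siCont (SD, n = 3 each, difference 0.64 ± 0.12, edgeR adjusted p = 0.000224). KLHL9 stood at 11.6 CPM in H460 siCont and 8.08 in H1299 siCont, and FOCAD at 10.7 and 14.5 CPM. On the far side ELAVL2 was counted in H460 at 0.95 CPM with siCont, against 0.19 in H1299. The files hold RNA only, so whether these genes are present in the DNA of H460 was not tested.

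**Figure D2:**
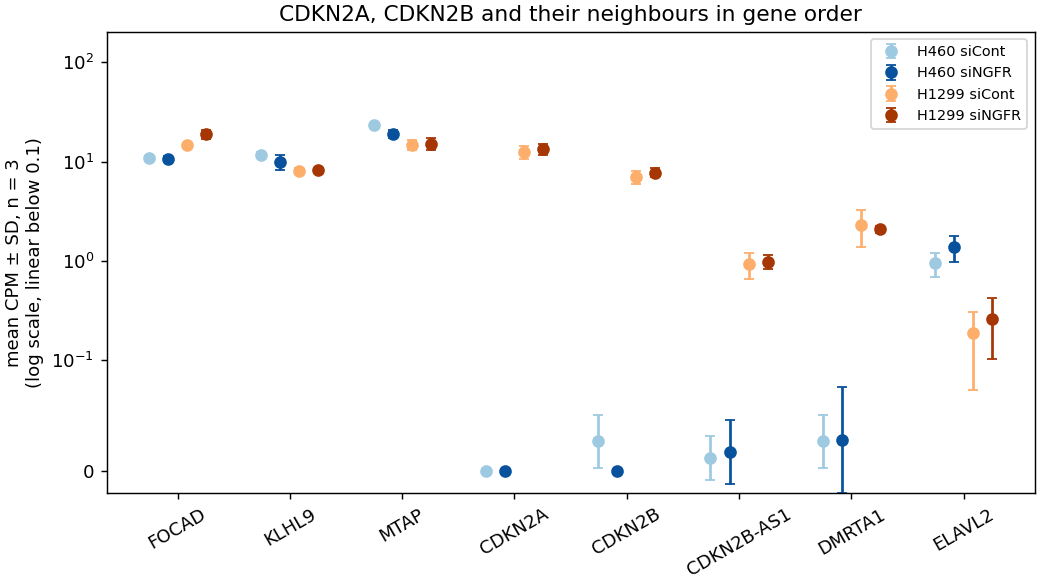
Mean CPM ± SD (n = 3 libraries, log scale, linear under 0.1) of CDKN2A, CDKN2B and their neighbours on chromosome 9, placed in gene order along the horizontal axis, in the 4 groups. In H460 the run from CDKN2A to DMRTA1 lies at or near 0, between MTAP at 23.1 CPM and ELAVL2 at 0.95 CPM with siCont, while H1299 holds 12.4 CPM of CDKN2A.

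CDKN2C, the gene of p18, was the other inhibitor that moved in H460, in the direction opposite to CDKN1A. It lies on chromosome 1 (50960745 to 50974633, plus strand). H460 siCont libraries 4, 5 and 6 held 16.2, 15.3 and 14.4 CPM, and H460 siNGFR libraries 4, 5 and 6 held 9.56, 7.24 and 7.31 CPM. Every siNGFR library was below every siCont library. CDKN2C fell by 0.92 ± 0.13 on the log2 scale (SE, edgeR adjusted p = 0.00247, lower in 3 of 3 libraries). In H1299 siCont libraries 1, 2 and 3 it stood at 27.0, 25.6 and 26.5 CPM, and in H1299 siNGFR libraries 1, 2 and 3 at 15.3, 13.6 and 22.4 CPM. Those groups did not overlap either, although replicate 3 was again near siCont, and the difference of -0.62 ± 0.18 (SE) had an unadjusted p of 0.00828 and an adjusted p of 0.261 in edgeR's test. Without replicate 3 it was -0.86 ± 0.12 (edgeR, adjusted p = 0.000277). The responses of the lines differed by -0.32 ± 0.24 (edgeR, adjusted p = 0.513), so that a difference between them was not shown. CDKN2C was lower in H460 than in H1299 with siCont (-0.79 ± 0.11, edgeR adjusted p = 1.38e-05) and with siNGFR (-1.15 ± 0.20, adjusted p = 0.000809).

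CDKN2D, the gene of p19, held few reads in H460. It lies on chromosome 19 (10566462 to 10569059, minus strand). H460 siCont libraries 4, 5 and 6 held 3.10, 2.61 and 1.98 CPM, and H460 siNGFR libraries 4, 5 and 6 held 1.55, 2.13 and 1.64 CPM, with some overlap. H1299 siCont libraries 1, 2 and 3 held 7.22, 9.08 and 10.6 CPM, and H1299 siNGFR libraries 1, 2 and 3 held 5.38, 4.81 and 9.28 CPM, where replicate 3 again lay among the siCont libraries. Neither difference was called, at -0.49 ± 0.23 in H460 (SE, edgeR adjusted p = 0.274) and -0.46 ± 0.26 in H1299 (adjusted p = 0.363, or -0.81 ± 0.19 with adjusted p = 0.0071 without replicate 3). CDKN2D was lower in H460, with a log2 difference of -1.82 ± 0.20 with siCont (edgeR, adjusted p = 1.77e-06) and -1.92 ± 0.28 with siNGFR (adjusted p = 0.000241).

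CDKN3, the phosphatase, lies on chromosome 14 (54396849 to 54420218, plus strand) and had the smallest difference between the siCont groups of the lines among the 5 members counted in both lines. H460 siCont libraries 4, 5 and 6 held 14.3, 14.1 and 13.8 CPM, and H460 siNGFR libraries 4, 5 and 6 held 15.9, 10.2 and 9.38 CPM. Library 4 of siNGFR was above all siCont libraries and the others below them, which gave -0.24 ± 0.17 (SE, edgeR adjusted p = 0.49). Without H460 siNGFR replicate 4 the difference was -0.49 ± 0.13 and was called (edgeR, adjusted p = 0.0266). H1299 siCont libraries 1, 2 and 3 held 12.4, 9.46 and 7.57 CPM and H1299 siNGFR libraries 1, 2 and 3 held 7.29, 9.84 and 7.92 CPM, which overlapped (-0.25 ± 0.20, edgeR adjusted p = 0.498, and -0.23 with adjusted p = 0.427 without replicate 3). CDKN3 was higher in H460 with siCont by 0.50 ± 0.16 (edgeR, adjusted p = 0.0121), a call lost without H1299 siCont replicate 3 (0.34 ± 0.15, adjusted p = 0.0628), and with siNGFR the difference was 0.46 ± 0.21 (adjusted p = 0.0957).

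**Figure D3:**
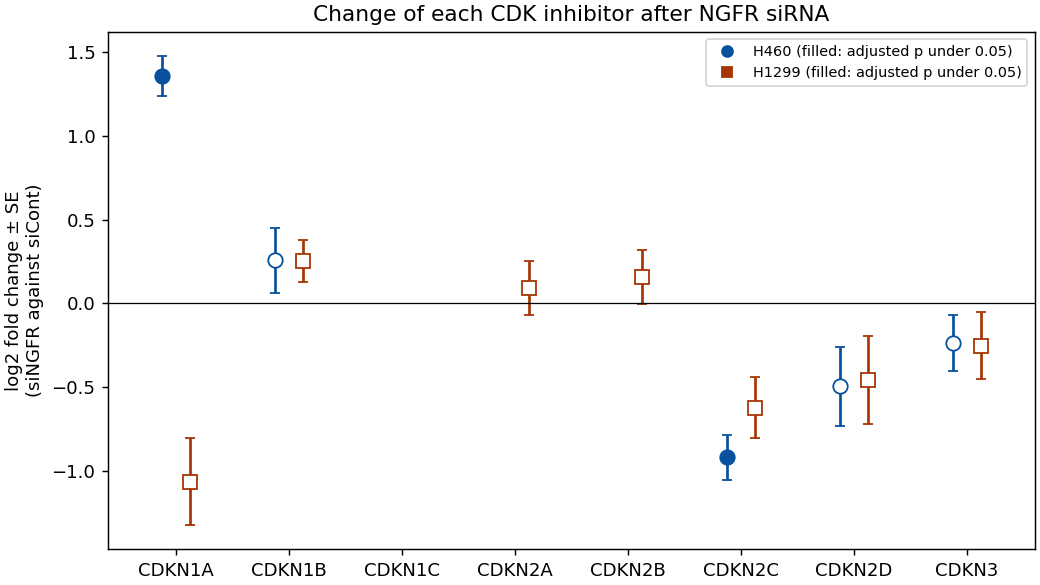
Log2 fold change ± SE (siNGFR against siCont, vertical axis) of each inhibitor that passed the filter on low counts, for H460 (circles) and H1299 (squares). Filled symbols passed an adjusted p of 0.05, which were CDKN1A at 1.36 and CDKN2C at -0.92, both in H460, and CDKN1A stands at -1.06 in H1299.

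The counts of calls can be set beside those over all genes. In H460, 5 of the 8 inhibitors could be tested after siNGFR. Of these 1 was higher, where 1.81% of all 19837 genes tested were, and 1 was lower, where 2.50% were. The median of the 5 was -0.24 on the log2 scale and that of all genes 0.01. The groups did not overlap for 2 of the 5, against 23.7% of all genes. In H1299, 7 could be tested and 0 were called by edgeR, where 0.0106% of 18925 genes were called higher and 0.0106% lower, a share of 2 genes each. At an unadjusted p under 0.05 the H1299 test held 3404 genes, CDKN1A and CDKN2C among them, and DESeq2 called 75 genes higher and 88 lower. The median of the 7 was -0.25 and that of all genes 0.00, and 3 of the 7 (CDKN1A and CDKN2C lower, CDKN1B higher) did not overlap, against 20.8% of all genes. Without H1299 siNGFR replicate 3, edgeR called 4 inhibitors (CDKN1A, CDKN2C and CDKN2D lower, CDKN1B higher), where 11.3% of all genes were called higher and 16.6% lower, while without any other single library 0 inhibitors were called in H1299. For the difference between the responses, CDKN1A was the 1 inhibitor called among the 5 counted in both lines, where 0.158% of 21583 genes were called higher in H460 and 0.269% lower. CDKN1B, CDKN2D and CDKN3 differed between the responses by -0.02 ± 0.24, -0.06 ± 0.37 and 0.00 ± 0.25, so that of these small differences none passed the test.

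Between the lines most inhibitors differed, as did most genes. Of the 5 counted in both lines, 2 (CDKN1A and CDKN3) were called higher in H460 with siCont and 3 (CDKN1B, CDKN2C and CDKN2D) lower, where 31.9% of all genes were higher and 31.3% lower. Their groups were apart in all 5, as were those of 67.3% of all genes. With siNGFR 1 was higher and 3 lower, where 27.5% and 28.6% of all genes were, and 4 of the 5 were apart against 63.1% of all genes. CDKN2A and CDKN2B are left out of these counts, since their H460 groups were at or next to 0. CDKN1A was higher in H460 by 0.90 ± 0.11 with siCont (SE, edgeR adjusted p = 4.07e-06) and by 3.26 ± 0.27 with siNGFR (adjusted p = 5.06e-06).

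The order of the inhibitors by CPM per kb of exon differed between the lines. In H460 siCont, CDKN1A led at 12.7 ± 0.93 CPM per kb, followed by CDKN3 at 7.66 ± 0.13 and CDKN2C at 4.62 ± 0.27 (SD, n = 3). CDKN1B (1.83 ± 0.15) and CDKN2D (1.80 ± 0.39) were not apart from each other beyond their spread, and CDKN1C, CDKN2B and CDKN2A closed the order at 0.044, 0.0068 and 0 CPM per kb. In H1299 siCont, CDKN2C led at 7.95 ± 0.23 CPM per kb. CDKN1A (6.77 ± 0.26), CDKN1B (6.44 ± 0.13), CDKN2D (6.31 ± 1.20) and CDKN3 (5.35 ± 1.34) followed within or close to their spread, ahead of CDKN2A (3.25 ± 0.48) and CDKN2B (1.75 ± 0.26). After siNGFR, CDKN1A reached 32.2 ± 4.08 CPM per kb in H460, and in H1299 siNGFR it stood at 3.24 ± 1.40, behind CDKN1B at 7.72 ± 0.93.

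The sum of the inhibitor RNA rose with CDKN1A in H460. In H1299 both were lower after siNGFR, although CDKN1A was not called there in the main edgeR fit. The sum without CDKN1A was lower on average in both lines. The 8 genes summed to 30.3, 28.3 and 27.3 CPM per kb in H460 siCont and to 45.0, 41.3 and 47.3 in H460 siNGFR. In H1299 they summed to 38.0, 38.1 and 37.6 with siCont and to 28.1, 29.02 and 35.0 with siNGFR. In neither line did the groups overlap, and each exact two-sided permutation test gave p = 0.1, the smallest that 3 against 3 libraries allow. Without CDKN1A the sum was 16 ± 0.64 with siCont and 12.4 ± 2.81 with siNGFR in H460 (exact permutation test, p = 0.2), and 31.2 ± 0.10 and 27.5 ± 2.32 in H1299 (p = 0.1, SD, n = 3 each), lower after siNGFR in both lines on average. Without H1299 siNGFR replicate 3 the H1299 siNGFR sums were 28.6 with CDKN1A and 26.1 without it. CDKN1A made up 44.3% ± 1.08 of the sum in H460 siCont and 72.1% ± 6.34 in H460 siNGFR (SD, n = 3), against 17.9% ± 0.56 and 10.3% ± 3.11 in H1299 (exact permutation test, p = 0.1 in each line).

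**Figure D4:**
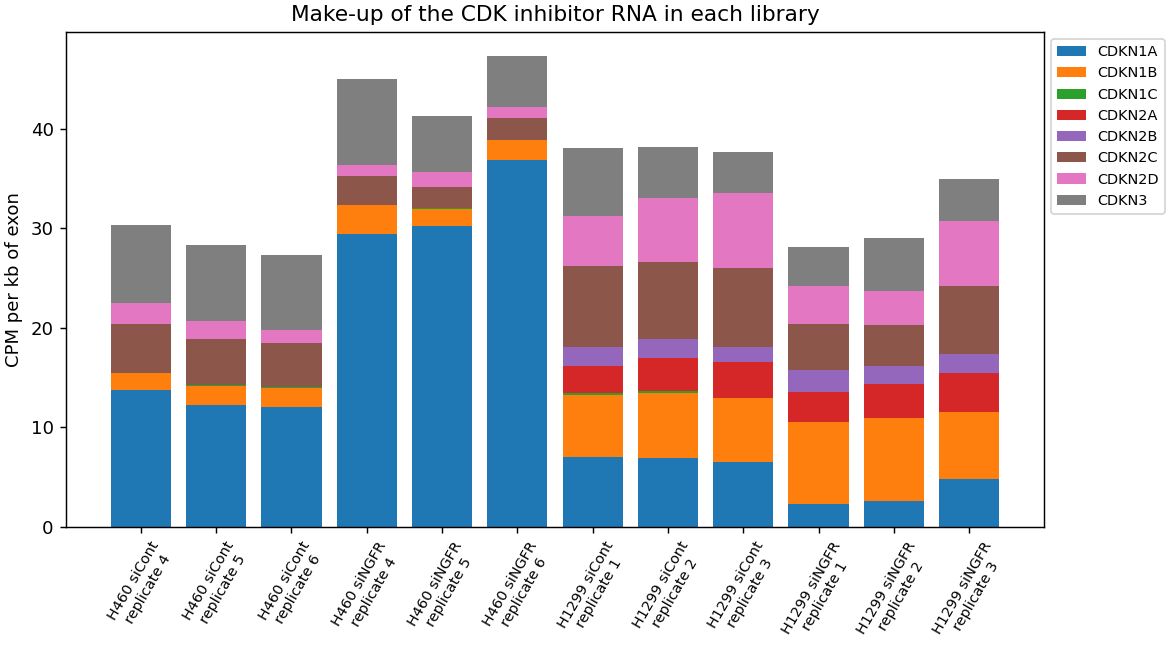
Summed RNA of the 8 inhibitors in CPM per kb of exon (bar height, from 0) in each of the 12 libraries, split by gene. The H460 siNGFR bars reach 41.3 to 47.3, most of it CDKN1A, while the H1299 bars hold all genes but CDKN1C in visible amounts.

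The targets and partners of the inhibitors were read from lists of genes. In H460 the counts of calls per list stand beside 1.81% of all genes called higher and 2.50% lower. Nothing particular to the lists is read from these counts. The 4 CDKs of the cell cycle (CDK1, CDK2, CDK4 and CDK6) were all tested, and 0 were called in either line by edgeR's test. Of the cyclins that bind them, 1 of 7 tested was called in H460, namely CCND1, the cyclin D1 that competes with INK4 proteins for CDK4 and CDK6. It went from 62.0 ± 6.89 to 40.5 ± 3.69 CPM (SD, n = 3) and fell by 0.60 ± 0.12 on the log2 scale (SE, edgeR adjusted p = 0.0136). In H1299 CCND1 stood at 106 ± 10.9 and 63.5 ± 24.5 CPM and was not called, as were none of the 8 cyclins tested there with all libraries. Of the 13 RB and E2F proteins tested 0 were called in either line. Among 8 kinases and phosphatases that set the phosphorylation of CDKs, PKMYT1, which inhibits CDK1, fell in H460 by 0.75 ± 0.12 (from 28.9 ± 2.56 to 17 ± 1.72 CPM, edgeR adjusted p = 0.0037), and the other 7 were not called.

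Of 11 ubiquitin ligase components that act on CIP/KIP proteins, DTL was the 1 called in H460. The H460 counts here again stand beside 1.81% of all genes called higher and 2.50% lower. DTL directs the CUL4 ligase to p21 when DNA is being copied, and it fell by 0.46 ± 0.11 (from 31.5 ± 2.69 to 22.6 ± 1.12 CPM, edgeR adjusted p = 0.0342). Of 13 cycling-cell genes 2 fell in H460, both of nucleotide synthesis, TYMS by 0.57 ± 0.10 (adjusted p = 0.00748) and RRM2 by 0.46 ± 0.11 (adjusted p = 0.0323). The median of the 13 was -0.12. In H1299 0 of the 13 were called by edgeR, with a median of -0.22. Of the transcription factors known to act on CIP/KIP genes, 1 of 9 tested rose in H460, KLF4, from 20.8 ± 1.74 to 31.5 ± 4.68 CPM (0.62 ± 0.13, edgeR adjusted p = 0.0165). Of the 8 polycomb genes, which silence the INK4 locus in many cells, 0 were called in either line after siNGFR. Between the lines with siCont, 1 of the 8 was called higher in H460, 3 lower and 4 not, where 31.9% of all genes were higher and 31.3% lower. CBX7 was among the lower ones (-2.05 ± 0.24, edgeR adjusted p = 3.8e-06). Of the 4 neighbours of CDKN1A that could be tested, SRSF3 and PPIL1 among them, 0 were called in either line.

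The absence of calls among the partners in H1299 holds for all libraries together and not without H1299 siNGFR replicate 3. Without it edgeR called 1 of 4 CDKs (CDK6, higher), 3 of 8 cyclins lower, 1 of 13 RB and E2F proteins lower and 2 higher, 1 of 8 kinases and phosphatases in each direction, 2 of 11 ligase components higher, 4 of 13 cycling-cell genes lower, 1 of 8 polycomb genes higher and 1 of 10 transcription factors higher. These stand beside 11.3% of all genes higher and 16.6% lower. Of the partners that fell in H460, 4 were also lower in H1299 in that fit, CCND1 (-1.11 ± 0.13, SE, edgeR adjusted p = 7.9e-05), PKMYT1 (-0.55 ± 0.13, adjusted p = 0.00752), TYMS (-0.57 ± 0.11, adjusted p = 0.00253) and RRM2 (-0.31 ± 0.11, adjusted p = 0.0486), and DTL was not called. Of the neighbours of the inhibitors, 2 of CDKN1A and 2 of CDKN2A and CDKN2B were higher in that fit, and 2 of CDKN1C were higher, CARS and CD81, and 2 lower.

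**Figure D5:**
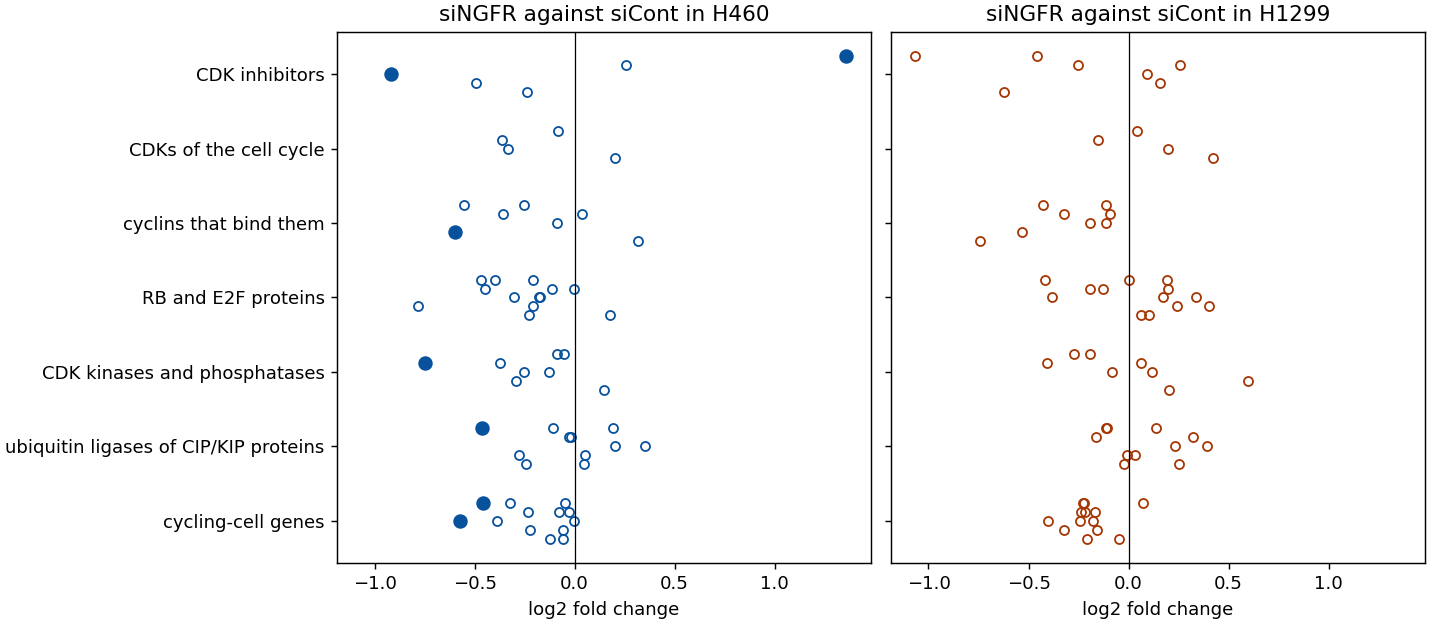
Log2 fold change (siNGFR against siCont, horizontal axis) of every tested gene of 7 lists, 1 point per gene, for H460 (left) and H1299 (right), with filled points past an adjusted p of 0.05. In H460 the filled points are CDKN1A at 1.36, CDKN2C at -0.92 and, from the other lists, CCND1, PKMYT1, DTL, TYMS and RRM2, all below 0, and in H1299 no point is filled with all libraries in the fit.

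Between the lines with siCont, the counts of partners called stand beside 31.9% of all genes higher in H460 and 31.3% lower, and nothing particular to the lists is read from them. CDK6 was lower in H460 (-1.41 ± 0.11 on the log2 scale, SE, edgeR adjusted p = 3.2e-08), as was CDK2 (-0.44 ± 0.10, adjusted p = 0.00209), while 0 of the 4 CDKs were higher. Of 8 cyclins tested, CCND3 was higher (0.71 ± 0.12, adjusted p = 0.000117) and 6 were lower, among them CCNB2 and CCNA2. Of 11 ligase components 5 were higher in H460, including DTL (1.20 ± 0.12, adjusted p = 7.79e-07) and CUL1 (1.00 ± 0.11, adjusted p = 1.24e-06), and 1, RBX1, was lower. Among the 10 transcription factors of CIP/KIP genes tested, 4 were higher in H460 and 5 lower. FOXO1 was higher (3.11 ± 0.20, edgeR adjusted p = 6.78e-09) and FOXO3 lower (-1.41 ± 0.12, adjusted p = 1.65e-07), both transcription factors that act on CDKN1B. FOXO4 stood at 2.08 CPM in H460 siCont and 4.43 CPM in H1299 siCont.

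Across the 12 libraries, the genes whose log2 CPM ran closest to those of CDKN1A among 13939 genes were FDXR, RAB27B and IER5, with Pearson r of 0.98 for each. FDXR, the ferredoxin reductase of mitochondria, and IER5 are known p53 targets. For CDKN1B they were RIMS3, STX18 and FBXO10 (r = 0.99 each), for CDKN2C SRGAP2C, CFD and RTN1 (0.98 each), for CDKN2D MARCKSL1, SCD5 and FBXO16 (0.98 each), and for CDKN3 PSMC2, ACAA2 and PAWR (0.93 to 0.94). For CDKN2A they were BEX1, HOXB2 and FLNC, and for CDKN2B the near-identical copies GAGE13, GAGE12F and GAGE12H, whose reads cannot be told apart (r = 1.00 each). The 12 libraries fall into the 2 lines, and a gene that differs between the lines reaches a high r from that alone, so these values are a description of the libraries.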

How the data were processed

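RNA was measured in 3 libraries each of H460 and H1299 cells with siCont or siNGFR, made from total RNA after depletion of ribosomal RNA by the Ion Total RNA-Seq Kit v2 and sequenced on Ion PI chips. The authors deposited read counts per gene and library, and per the submitters' processing notes STAR, Bowtie2 and the build hg38 were used. The sources used here do not give the counting program, its strand setting or its annotation. The authors' own comparisons (EBSeq scores and fold changes per line) were not used, nor were 24 other columns of values per sample, which hold RPKM and repeats of the counts. The titles number the H460 libraries 1 to 3 and the columns 4 to 6, so H460 columns were mapped to groups only and are called by their column numbers. The labels call the samples biological replicates.

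The counts were analysed in R 4.3.3. For each of 5 comparisons (siNGFR against siCont in each line, the difference between these responses, and H460 against H1299 with each siRNA) genes were kept by filterByExpr, scaled by TMM and tested with the two-sided quasi-likelihood test of edgeR 4.0.16, with Benjamini-Hochberg adjustment over all genes kept and a threshold of 0.05. The fits used the libraries compared, and all 12 for the difference between responses. SE was taken from the F statistic. Sums and shares of the 8 genes were compared by exact permutation tests. Fold limits against groups at 0 used a floor of 3 counts over the group, and intervals of count ratios were exact at 95%. The alternatives were DESeq2 1.42.0, other scalings and filters, 1 fit of all libraries, the replicate number as a block, and leaving out each library. The test was tried on simulated counts. Coordinates came from GENCODE for GRCh38 and promoters from RefSeq. Genes named are the 8 inhibitors, up to 3 called genes per list, direction and comparison with the smallest p, with others given as examples after their values were seen, and the 3 genes with the highest correlation to each inhibitor that averaged 50 counts or more. The members and the lists were chosen with earlier results of these data known. One gene of the lists is counted with its list, and its own values are not reported here.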

Additional observations from a re-analysis of the deposited data

Results flagged for a closer look

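One result stood out by a test of the difference between groups. CDKN1A responded differently to siNGFR in the lines, with a response in H460 minus the response in H1299 of 2.40 on the log2 scale (edgeR's quasi-likelihood test of the interaction, adjusted p = 0.00468). CDKN1A was higher in 3 of 3 H460 siNGFR libraries and lower in 3 of 3 H1299 siNGFR libraries than in the siCont libraries of the same line. Groups that did not overlap in either direction were found for 23.7% of all genes in H460 and 20.8% in H1299. The fall in H1299 was not called in the main edgeR fit. It was called with DESeq2, and with edgeR when genes were not filtered or in 1 fit of the 12 libraries. It was also called without H1299 siNGFR replicate 3, and not without any other single library.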

How the results depend on the processing

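In H460 the count of 2 inhibitors called became 4 when counts were scaled by library size alone (CDKN2D at -0.83 and CDKN3 at -0.55 on the log2 scale then joined), a scaling that moved the median of all genes from 0.01 to -0.32 and gave 155 higher and 4215 lower calls in place of 360 and 496. CDKN1A stayed higher and CDKN2C lower in every alternative (1.03 to 1.44 and -1.24 to -0.84), and leaving out 1 library gave 2 to 3 calls. In H1299 the count of 0 became 1 with DESeq2, 2 with no filter, 1 with 1 fit of the 12 libraries, and 0 to 4 when a library was left out. For the difference between responses the count stayed at 1 in every alternative. Between the lines, CDKN1A, CDKN1B, CDKN2C and CDKN2D kept their calls in every alternative with each siRNA. CDKN3 lost its call in 1 alternative with siCont and gained a call in 1 with siNGFR. CDKN2A and CDKN2B are again left out, since their H460 groups at or next to 0 fix their calls. Values near 0 changed sign without passing the test, and the cause was not tested. For CDKN1B the value in H460 was -0.052 with library size alone, and the difference between responses was 0.015 without genes under 400 bases and -0.262 to 0.087 without 1 library. For CDKN2D that difference was -0.27 to 0.22 without 1 library, and for CDKN2A in H1299 the response was -0.03 to 0.19. For CDKN3 the difference between responses was -0.036 with DESeq2 size factors and -0.04 with DESeq2, -0.46 with library size alone, -0.16 with no filter, -0.011 where all libraries had at least 10 counts, -0.056 with the replicate block and -0.28 to 0.12 without 1 library. Replicate numbers are shared within a line. The deviations of same-numbered libraries had correlations of -0.0043 to 0.0695 in H460 and -0.208 to 0.321 in H1299. Those of libraries with different numbers were -0.0774 to 0.0317 and -0.403 to 0.283. With 3 libraries per group, whose deviations are tied to each other, these values cannot decide whether the numbers mark pairs. With the number as a block all genes called fell from 360 and 496 to 261 and 299 in H460, and from 34 and 58 to 31 and 19 for the difference between responses, and the same number of inhibitors was called. In H1299 the block called 0 genes, with 3984 at an unadjusted p under 0.05. Without H460 siCont replicate 5 the H460 calls over all genes came to 92 and 163, and without H460 siNGFR replicate 5 to 100 and 111, against 881 and 677 without H460 siNGFR replicate 4. Over all genes, H460 calls also came to 698 and 784 with no filter, 560 and 607 without genes under 400 bases, and 195 and 266 in 1 fit. H1299 calls, 2 and 2, came to 13 and 12 with library size alone, 574 and 1330 with no filter, and 64 and 44 in 1 fit. Calls of the difference between responses came to 157 and 2885 with library size alone, 196 and 271 with DESeq2, 675 and 719 with no filter, and 47 and 91 without genes under 400 bases, and 2049 and 1906 without H1299 siNGFR replicate 3. They fell to 4 and 9 without H460 siCont replicate 5, 4 and 8 without H460 siNGFR replicate 5, 5 and 9 without H460 siCont replicate 4, and 5 and 12 without H1299 siNGFR replicate 1, and without the other libraries came to 6 to 43 and 12 to 112. At these depths CDKN1C, CDKN2A and CDKN2B in H460 could not be followed.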
